A study of Rattus norvegicus with 6 samples.

Results

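Srebf2, Insig1, Hmgcs1, Idi1, Fdft1, Sqle, Tmem97 and Mylip were examined on 6 rat arrays as a set of genes for the synthesis of cholesterol and the handling of the LDL receptor. They were chosen by name for these functions, with no threshold on a measured value but with earlier results of these data known. Of the 8 genes, 7 had a probe set that carried their symbol alone, among 18166 genes measured, and Hmgcs1 was not analysed here. Each of the 7 was measured by 1 probe set.

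The arrays came from 3 samples of the Hlirag group and 3 samples of the diabetic group. All were from male Sprague–Dawley rats that were 5 weeks old at the start, received a high-fat diet for 4 weeks and then streptozotocin at 30 mg/kg, which destroys the insulin-producing cells of the pancreas. The Hlirag group was then treated with the GLP-1 analog liraglutide at 0.4 mg/kg per day for 12 weeks, and the diabetic group received saline for the same time. The labels give an age of 17 weeks for both groups, which is less than these times add up to, and the disagreement was not resolved. No array of a rat without diabetes was used here, so values show the difference of Hlirag from diabetic rats and not from healthy ones.

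The labels disagree on the tissue: it is given as cardiac muscle, the titles begin with arota, a spelling not explained, and the descriptions speak of adipose. The markers of heart muscle were uneven between arrays. Signal is given on a log2 scale, and a gene was called above background at a signal over 5.60, the 95th percentile of 67 olfactory receptor genes. The level was set from means over the 6 arrays and then applied to each array. The median of the olfactory genes was 4.45 on Hlirag array 3, against 3.29 to 3.81 on the other arrays. Counts above background are thus not strictly comparable between arrays. By this level, 8, 4 and 4 of 12 ventricular cardiomyocyte markers were above background on Hlirag arrays 1, 2 and 3, and 11, 7 and 4 on diabetic arrays 1, 2 and 3. On diabetic array 2, Myh7 (11.03), Myl3 (10.20) and Myoz2 (10.31) were high, while Myh6 (3.76), Tnni3 (4.64) and Mybpc3 (3.96) were below background. Myh7, Myl3 and Myoz2 were highest on diabetic arrays 1 and 2, as the skeletal muscle markers were, so the count of 7 does not by itself measure heart muscle. The contractile gene Tnnt2 had a signal of 8.05, 4.91 and 4.76 in Hlirag rats, and 9.68, 4.40 and 4.52 in diabetic rats. It was thus below background on 4 of 6 arrays, as was Myh6, the main heart myosin of adult rodents, and Nppa was below on all 6. Pln (7.18 to 10.13) and Casq2 (6.73 to 10.37), calcium-handling genes that other muscle also uses, were above background on all 6. So was Nppb of the same list (5.96 to 7.03), and Ryr2 was below background only on Hlirag array 3 (5.57). All 10 adipocyte markers were above background on every array, and Adipoq, the fat-cell hormone adiponectin, lay between 11.96 and 12.31. The 6 smooth muscle markers measured were also above background on every array, with Myh11 between 9.75 and 11.91 and Tagln between 10.23 and 12.73. Of 9 brown adipocyte markers, 6, 6 and 7 were above background in Hlirag rats, and 7, 5 and 6 in diabetic rats, and their median signal was 7.62, 8.64 and 7.59 in Hlirag rats, and 8.04, 7.35 and 6.35 in diabetic rats. These markers did not all go one way between groups. Ucp1, the uncoupling protein of brown fat, had 10.75, 12.75 and 12.03 in Hlirag rats, and 10.92, 7.35 and 7.05 in diabetic rats. Its groups overlapped, since diabetic array 1 lay above Hlirag array 1. Cox8b had 8.31, 10.12 and 10.04 in Hlirag rats, and 8.04, 8.08 and 6.35 in diabetic rats, without overlap. Ppargc1a had 7.62, 8.64 and 7.59 in Hlirag rats, and 9.13, 7.96 and 7.07 in diabetic rats, with overlap. Zic1 was below background on all 6 arrays. The part of brown fat in the differences of Srebf2, Tmem97 and Srebf1 was not tested. Diabetic arrays 1 and 2 stood apart: the median signal of 8 neuron markers was 4.90, 5.11 and 5.11 in Hlirag rats, and 8.03, 10.77 and 5.18 in diabetic rats. The median of 7 skeletal muscle markers was 4.58, 4.61 and 5.09 in Hlirag rats, and 9.31, 10.53 and 5.03 in diabetic rats. Signals were also compressed on Hlirag array 3, with an SD over genes of 1.52, against 1.84 to 1.98 on the other 5 arrays. In such bulk tissue, fewer cells of a type and less RNA per cell cannot be told apart.

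Cells make cholesterol from acetyl-CoA through mevalonate, isoprenoids, squalene and lanosterol, and take it up as LDL through the LDL receptor. Both routes are controlled by SREBP-2, the product of Srebf2, a transcription factor held in the endoplasmic reticulum by INSIG proteins when sterol is plentiful and released to the nucleus when sterol is scarce. Its targets include the synthesis enzymes and the LDL receptor, and its sites in promoters usually lie close to boxes for NF-Y and Sp1. Adipose tissue makes little cholesterol of its own and holds a large store of it, mostly unesterified and bound to the fat droplet.

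The promoters of Srebf2, Tmem97 and Idi1 are shown because they belong to the gene of the regulator, to the gene that was higher in Hlirag rats and to an enzyme gene of the pathway. Each is the RefSeq sequence of the 250 bases before the start of the gene, read along its own strand, on build GRCr8. Srebf2 lies at chr7:115543057-115543306 on the plus strand, Tmem97 at chr10:63945360-63945609 on the minus strand and Idi1 at chr17:66547525-66547774 on the minus strand. Capitals mark the NF-Y box CCAAT and the Sp1 box GGGCGG, on either strand.
Srebf2: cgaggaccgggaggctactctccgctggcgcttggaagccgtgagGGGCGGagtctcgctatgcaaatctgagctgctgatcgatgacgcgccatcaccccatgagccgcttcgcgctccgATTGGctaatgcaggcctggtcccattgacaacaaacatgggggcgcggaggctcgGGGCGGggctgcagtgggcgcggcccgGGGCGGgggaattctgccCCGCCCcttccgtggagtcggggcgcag
Tmem97: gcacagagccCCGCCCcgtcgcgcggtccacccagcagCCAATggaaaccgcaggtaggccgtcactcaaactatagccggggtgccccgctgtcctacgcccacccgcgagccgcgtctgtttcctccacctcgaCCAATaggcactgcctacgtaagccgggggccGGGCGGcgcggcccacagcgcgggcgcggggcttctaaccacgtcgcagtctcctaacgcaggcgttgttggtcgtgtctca
Idi1: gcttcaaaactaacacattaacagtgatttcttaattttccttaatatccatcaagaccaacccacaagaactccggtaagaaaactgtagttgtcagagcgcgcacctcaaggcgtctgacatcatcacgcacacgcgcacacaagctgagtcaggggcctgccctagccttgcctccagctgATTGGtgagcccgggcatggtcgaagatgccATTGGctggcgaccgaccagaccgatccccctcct

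Promoters of 5 of the 7 measured genes were in the RefSeq table, those of Srebf2, Insig1, Idi1, Tmem97 and Mylip. In a window of 300 bases, which reached 50 bases past the start, all 5 held an NF-Y box, against 37.5% of 33469 rat promoters. An Sp1 box was found in 4 of the 5, all but Idi1, against 33.1% of promoters. The sterol regulatory element TCACNCCAC was found in 0 of the 5 and in 1.12% of promoters. With 1 letter allowed to differ, which 22.9% of promoters held, the Srebf2 promoter had TCACCCCAT at -156 to -148 from the start, C9T counted from the first letter of the element. The Insig1 promoter had 2 such matches. These are matches of letters in a window and say nothing of binding.

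**Figure D1:**
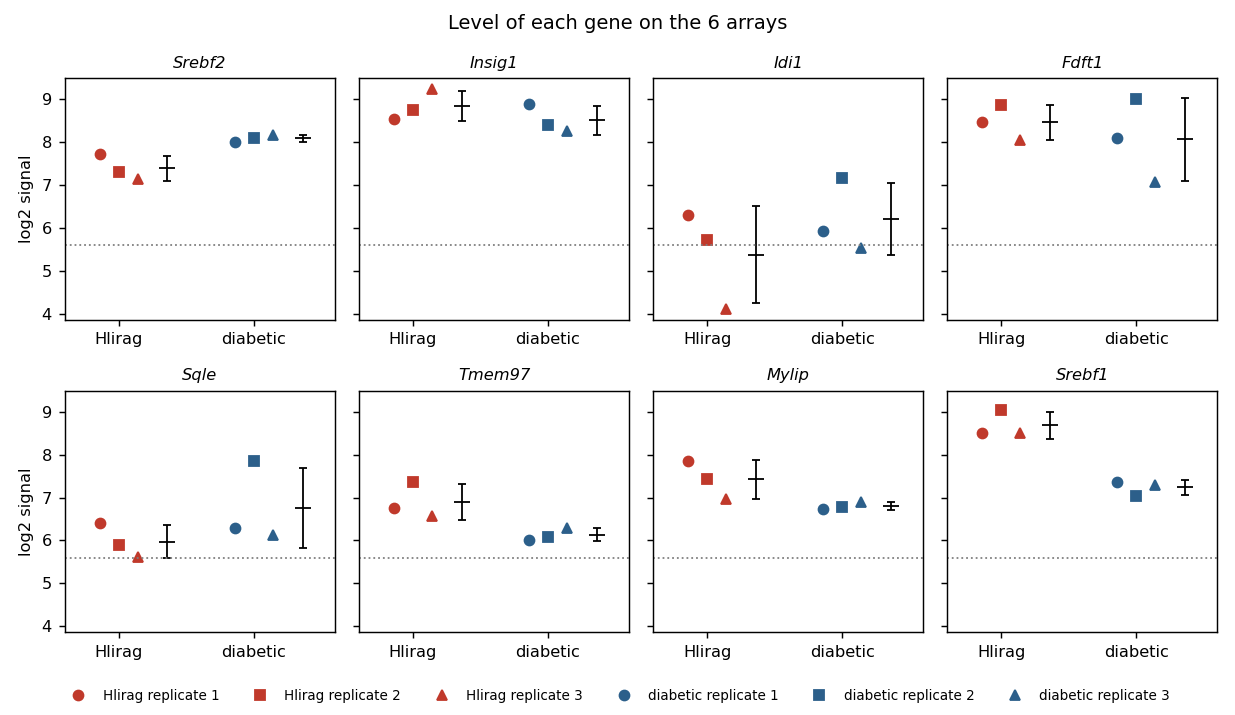
Log2 signal of the 7 measured genes and of Srebf1 on each array, with Hlirag rats left of diabetic rats and the background level of 5.60 dotted. Each point is 1 array, the bar is the group mean and the error bar is the SD (n = 3 per group); the 3 Hlirag points of Srebf2 lie below all 3 diabetic points, and those of Tmem97 and Mylip lie above.

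Which of these genes differed between liraglutide-treated and untreated diabetic rats was tested across all 18166 genes with limma. At the criterion of the study's methods, a fold change over 1.5 with an unadjusted p under 0.05, Srebf2 was lower and Tmem97 was higher in Hlirag rats, and the other 5 genes did not pass. Each direction thus held 1 of 7 genes, or 14.3%, where 1.62% of all genes were higher, 2.16% were lower and 3.78% were either. Among genes above background 1.62% were higher and 3.51% lower. The 7 genes were chosen with earlier results of these data known, so such shares describe the set and do not test it. After Benjamini-Hochberg adjustment, 0 of 18166 genes had a limma adjusted p under 0.05, and the adjusted p was 0.780 for 6 of the 7 genes and 0.798 for Fdft1. Standard errors and intervals given for single genes are those of the limma fit. Without adjustment, 752 genes (4.14%) had a p under 0.05. By the test named in the study's methods 690 (3.8%) did, 236 (1.3%) met the criterion and 0 remained after adjustment. The groups did not overlap for 3 of the 7 genes, 2 higher and 1 lower in Hlirag rats, where 6.42% of all genes were higher and 4.69% lower without overlap. Of the 9549 genes above background, 355 were higher and 702 lower without overlap. An exact permutation test of 3 against 3 arrays cannot go below a two-sided p of 0.1.

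Srebf2 encodes the transcription factor at the head of the pathway. Its signal was 7.72, 7.30 and 7.15 in Hlirag rats, and 8.01, 8.10 and 8.16 in diabetic rats. The 3 diabetic arrays lay close together, and every Hlirag array lay below them. The mean was 7.39 ± 0.30 in Hlirag rats and 8.09 ± 0.08 in diabetic rats (SD, n = 3 each), a log2 difference of -0.70 (SE 0.23, 95% confidence interval -1.25 to -0.16), or 1.63-fold lower. Hlirag array 3 had the lowest signal, and without it the difference was -0.58 and no longer met the criterion. It also missed the criterion after quantile normalization (-0.57), with array weights (-0.53) and without Hlirag array 2 (-0.66) or diabetic array 3 (-0.67). Without diabetic arrays 1 and 2, those with high neuron and skeletal muscle markers, it was -0.77. Only 1 diabetic array is left in such a fit, the spread then comes from the Hlirag arrays alone, and no call is read from it. Beyond these values, the part of the markers in the result was not tested.

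Insig1 encodes an anchor that retains SREBP in the endoplasmic reticulum, and its own gene is an SREBP target. Its signal was 8.54, 8.76 and 9.24 in Hlirag rats, and 8.89, 8.39 and 8.25 in diabetic rats. The groups overlapped, since diabetic array 1 lay above Hlirag arrays 1 and 2. The log2 difference was 0.33 (SE 0.28, 95% confidence interval -0.32 to 0.99), an interval that holds differences in both directions. It was 0.14 without Hlirag array 3 and 0.52 without diabetic array 1, and with array weights the sign turned, to -0.079.

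Srebf1, which is not among the 8 genes, encodes the related factor SREBP-1 of fatty acid synthesis and is named as the gene of its list at the criterion. Its signal was 8.51, 9.05 and 8.50 in Hlirag rats, and 7.37, 7.04 and 7.29 in diabetic rats. All Hlirag arrays lay above all diabetic arrays, by a log2 difference of 1.45 (SE 0.25, limma adjusted p = 0.780). Under all 18 alternative settings the difference lay between 1.27 and 1.55, and Srebf1 met the criterion in each setting from which a call is read.

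**Figure D2:**
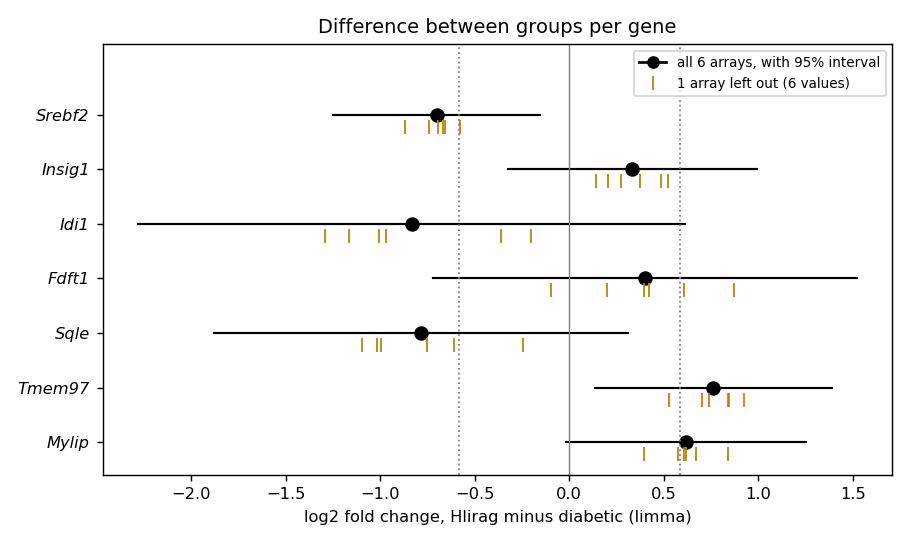
Log2 difference of Hlirag minus diabetic for each measured gene, with its 95% confidence interval from limma, over 3 arrays per group, ticks for the values with 1 array left out and dotted lines at a fold of 1.5. The intervals of Srebf2, from -1.25 to -0.16, and of Tmem97, from 0.14 to 1.39, do not reach 0, and those of the other 5 genes do.

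The enzyme genes of the set did not meet the criterion. Idi1 encodes the isomerase that makes dimethylallyl diphosphate, Fdft1 the squalene synthase and Sqle the squalene epoxidase. Idi1 had a signal of 6.30, 5.73 and 4.12 in Hlirag rats, and 5.94, 7.16 and 5.54 in diabetic rats. It was below background on 2 arrays, Hlirag array 3 and diabetic array 3, so low values there are uncertain. Its log2 difference was -0.83 (SE 0.62, 95% confidence interval -2.28 to 0.61). Without Hlirag array 3 it was -0.20, without diabetic array 2 it was -0.36, and without both its sign turned, to 0.27.

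Sqle had a signal of 6.40, 5.90 and 5.62 in Hlirag rats, and 6.30, 7.84 and 6.13 in diabetic rats. Diabetic array 2 lay above the other 5 arrays, which ranged from 5.62 to 6.40 with the groups mixed. The log2 difference was -0.78 (SE 0.47, 95% confidence interval -1.88 to 0.31), and -0.24 without diabetic array 2.

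Fdft1 had a signal of 8.48, 8.87 and 8.06 in Hlirag rats, and 8.11, 9.01 and 7.08 in diabetic rats. The diabetic arrays thus enclosed all the Hlirag arrays. The log2 difference was 0.40 (SE 0.48, 95% confidence interval -0.72 to 1.52), and its sign turned to -0.10 without diabetic array 3, the lowest. Without diabetic array 2 it was 0.87, and without Hlirag array 2 it was 0.20.

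All 3 enzyme genes were highest on diabetic array 2. Set against each gene's own mean over the arrays, their median was 0.21, -0.07 and -0.75 on Hlirag arrays 1, 2 and 3, and -0.07, 1.36 and -0.25 on diabetic arrays 1, 2 and 3. The other enzymes of the route showed the same arrays as extremes. For 15 other enzyme genes from acetyl-CoA to cholesterol, the median was 0.065, -0.088 and -0.57 on the Hlirag arrays, and 0.013, 0.53 and -0.048 on the diabetic arrays. Of these 15, 10 were highest on diabetic array 2 and 10 lowest on Hlirag array 3, or 66.67% each. All 18 together had a median of 0.08, -0.08 and -0.61 on the Hlirag arrays, and -0.01, 0.64 and -0.08 on the diabetic arrays. Of the 18, 13 were highest on diabetic array 2, or 72.2%, where 20.73% of all genes and 28.06% of the 9549 genes above background were. On Hlirag array 3, 12 of the 18 were lowest, or 66.67%, where 36.22% of all genes and 61.91% of genes above background were. The share lowest on Hlirag array 3 was thus close to that of genes above background, and how far the values fell was not compared. The share highest on diabetic array 2 was above that in either comparison.

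Diabetic array 2 was also the array with the highest neuron and skeletal muscle markers. Th and Dbh, enzymes of catecholamine synthesis in sympathetic neurons, had a signal of 10.59 and 11.86 there. On the Hlirag arrays Th lay between 4.43 and 5.22 and Dbh between 4.95 and 6.21. Of the 8 neuron markers, 8 were above background on diabetic arrays 1 and 2 and 1 to 3 on the other 4 arrays, and of the 7 skeletal muscle markers 7 were on diabetic arrays 1 and 2 and 1 to 2 on the others. Diabetic array 1, with neuron markers at a median of 8.03, had enzyme genes near their mean, at -0.01. The part of these cell types in the enzyme signal was not tested.

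**Figure D3:**
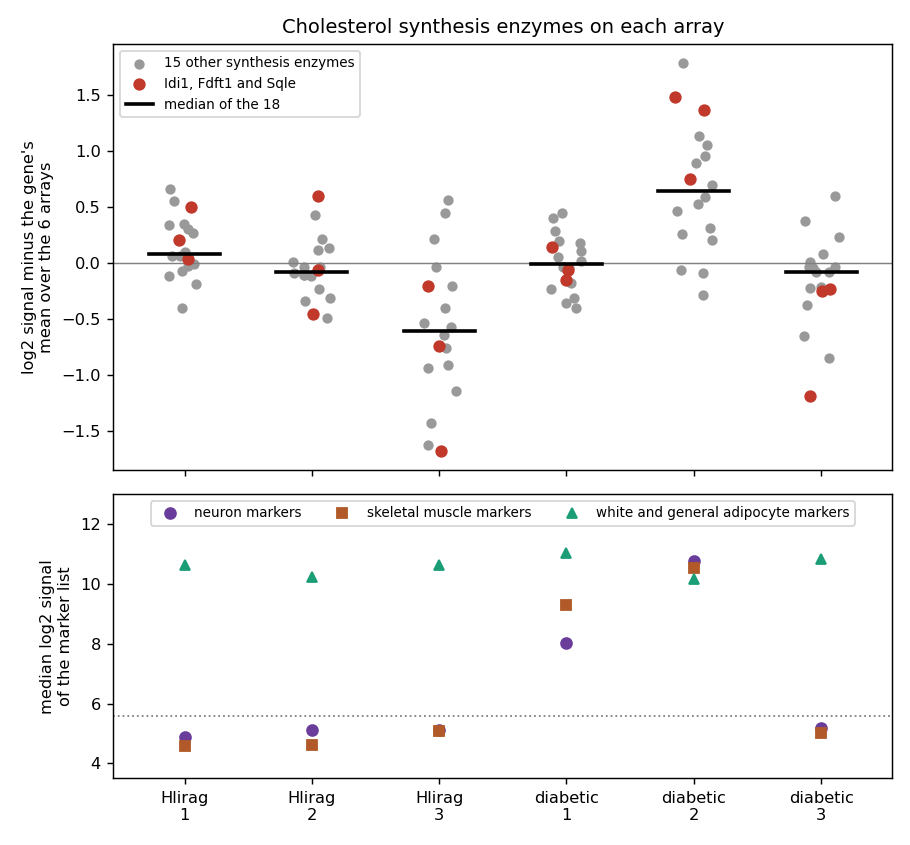
Upper panel, log2 signal of 18 cholesterol synthesis enzyme genes on each array minus each gene's mean over the 6 arrays, with Idi1, Fdft1 and Sqle in red and a bar at the median. Lower panel, median log2 signal of neuron, skeletal muscle and adipocyte markers, with the background level of 5.60 dotted; enzymes and neuron markers are both highest on diabetic array 2.

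Of the 18 enzyme genes, 0 were higher and 0 lower at the criterion, where 1.62% and 2.16% of all genes were, shares so small that a count of 0 in 18 says little. Their median log2 difference was -0.44, where the median was 0.00 over all genes and -0.19 over genes above background. With 13 of 18, or 72.2%, below 0, their share was near the 71.5% of genes above background that were. Without diabetic array 2 it was -0.16, without Hlirag array 3 it was -0.14, and without both it was 0.08, a setting chosen after the values were seen. Without diabetic arrays 1 and 2 it was -0.16.

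The remaining 2 genes act on uptake and traffic of cholesterol. Tmem97 encodes a protein of the endoplasmic reticulum and lysosome, the sigma-2 receptor, that binds the cholesterol transporter NPC1. Its signal was 6.75, 7.37 and 6.58 in Hlirag rats, and 6.02, 6.09 and 6.30 in diabetic rats. All Hlirag arrays lay above all diabetic arrays, with Hlirag array 2 the highest. The mean was 6.90 ± 0.42 in Hlirag rats and 6.13 ± 0.14 in diabetic rats (SD, n = 3 each), a log2 difference of 0.76 (SE 0.27, 95% confidence interval 0.14 to 1.39), or 1.70-fold higher. Without Hlirag array 2 it was 0.53 and no longer met the criterion, nor did it after centring arrays on their median (0.62) or without diabetic array 1 (0.70) or 2 (0.74). Without both of these it was 0.60, with 1 diabetic array left and no call read from it.

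Mylip encodes the ubiquitin ligase IDOL, which marks the LDL receptor for degradation and is a target of the sterol-activated nuclear receptors LXR. Its signal was 7.86, 7.42 and 6.98 in Hlirag rats, and 6.72, 6.78 and 6.91 in diabetic rats. The groups did not overlap, although Hlirag array 3 was only just above diabetic array 3. The log2 difference was 0.62 (SE 0.27, 95% confidence interval -0.02 to 1.25), which missed the criterion. It met the criterion after quantile normalization (0.73), with array weights (0.85) and without Hlirag array 3 (0.84). The weighted fit gave diabetic array 1 a weight of 9.20, against 0.27 to 0.93 for the other arrays. Without Hlirag array 1, the highest, the log2 difference was 0.40 and missed the criterion.

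Other genes of cholesterol metabolism were counted by role, in 6 lists with 59 of 66 genes measured. At the criterion 2 were higher and 0 lower in Hlirag rats, or 3.39% and 0.0% against 1.62% and 2.16% of all genes. Among genes above background these shares were 1.62% and 3.51%. The median log2 difference was -0.16, with 17 above 0 and 42, or 71.2%, below, which was near the median of -0.19 and the 71.5% below 0 among genes above background. The 2 genes were Srebf1 and Stard5. Stard5 encodes a cytosolic sterol-binding protein, and its signal was 7.13, 7.36 and 7.61 in Hlirag rats, and 6.92, 6.59 and 6.47 in diabetic rats. The groups did not overlap, with a log2 difference of 0.70 (SE 0.24), which met the criterion in 10 alternative settings and missed it in others. Among those that missed it were the fits without Hlirag array 2 (0.71) or 3 (0.58) and without diabetic array 2 (0.67) or 3 (0.61).

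Among the mevalonate and isoprenoid steps, 0 of 5 genes passed in either direction, where 3.78% of all genes did, with a median of -0.07. Beside so small a share, a count of 0 or 1 in this list or in those that follow says little about a role. Fdps, which makes farnesyl diphosphate, had 7.57, 7.03 and 6.12 in Hlirag rats, and 7.45, 8.16 and 7.27 in diabetic rats, a log2 difference of -0.72 (SE 0.41). It was -0.32 without Hlirag array 3 and -0.45 without diabetic array 2, and it met the criterion at -1.05 without Hlirag array 1. Ggps1, which makes geranylgeranyl diphosphate, had a difference of -0.48 (SE 0.35), or -0.13 without Hlirag array 3. Both overlapped between groups.

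From lanosterol to cholesterol, 0 of 10 genes passed, with a median of -0.44 and 8 of 10 below 0, where 71.5% of genes above background were. Cyp51, the lanosterol demethylase, had 6.98, 6.32 and 5.21 in Hlirag rats, and 7.04, 7.69 and 6.59 in diabetic rats, a log2 difference of -0.94 (SE 0.48). It was -0.45 without Hlirag array 3, and it met the criterion at -1.34 without Hlirag array 1 and with the replicate number as a block. Lbr, a sterol reductase that also tethers chromatin to the nuclear lamina, had a difference of -0.66 (SE 0.33), or -0.37 without Hlirag array 3, and met the criterion at -0.95 without Hlirag array 1. Msmo1, a sterol oxidase, and Lss, the lanosterol synthase, are named after their values were seen. Msmo1 had 8.07, 6.92 and 5.79 in Hlirag rats, and 7.52, 8.55 and 7.64 in diabetic rats, with the lowest value on Hlirag array 3 and the highest on diabetic array 2. Lss had 6.12, 6.53 and 5.88 in Hlirag rats, and 6.16, 8.30 and 6.14 in diabetic rats, so that diabetic array 2 alone stood above the rest, and without it the difference was 0.03.

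For SREBP processing and sterol sensing, 1 of 13 genes was higher and 0 lower, where 1.62% and 2.16% of all genes were. The 1 was Srebf1, and the median log2 difference of the list was -0.17. Among LDL and lipoprotein receptors and their handling, 0 of 7 genes passed, with a median of -0.16. Lrpap1, a chaperone of LDL receptor family proteins, had 7.75, 7.24 and 5.62 in Hlirag rats, and 7.47, 7.78 and 7.72 in diabetic rats. Only Hlirag array 3 stood far from the rest, and the log2 difference was -0.79 (SE 0.51). It was -0.16 without that array and met the criterion at -1.22 without Hlirag array 1. Snx17, a sorting protein that returns receptors to the cell surface, had a difference of -0.36 (SE 0.38), and its sign turned to 0.054 without Hlirag array 3.

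For lysosomal and cytosolic cholesterol transport, 1 of 10 genes was higher and 0 lower, where 1.62% and 2.16% of all genes were. The 1 was Stard5, and the median log2 difference of the list was -0.26. For storage, efflux and LXR targets, 0 of 14 genes passed, with a median of -0.07. Abcg4, a sterol transporter, had 7.43, 6.89 and 6.33 in Hlirag rats, and 6.20, 6.30 and 6.21 in diabetic rats. These did not overlap, with a log2 difference of 0.64 (SE 0.30). It was 0.37 without Hlirag array 1, the highest, and met the criterion in 4 settings, with 0.92 without Hlirag array 3. Cyp7b1, an oxysterol hydroxylase, was below background on all 6 arrays, so its difference of -0.29 is uncertain.

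**Figure D4:**
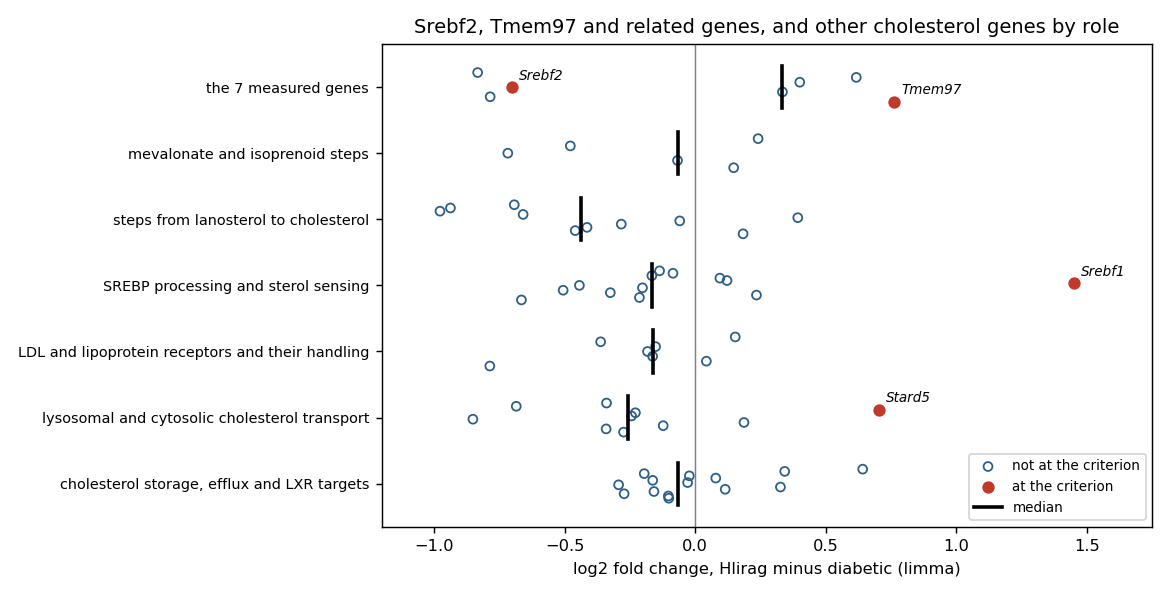
Log2 difference of Hlirag minus diabetic for the 7 measured genes and for 59 other cholesterol genes grouped by role, each point 1 gene and the bar the median of the group. Filled points met the criterion: Srebf2 on the lower side, and Tmem97, Srebf1 and Stard5 on the higher side.

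Genes with the most similar pattern over the 6 arrays were taken from 6451 genes above background. The mean pattern of Idi1, Fdft1 and Sqle was closest to that of Klhl20 (Pearson r = 0.996), followed by Afap1l2 (0.991), Rpap2 (0.990), Ranbp6 (0.989) and Mtmr2 (0.989). For Srebf2 the closest were Slc35c2 (0.991), Cyp2j4 (0.990) and Klf11 (0.989), and for Mylip they were Aplnr (0.925), Cish (0.913) and Vtcn1 (0.910). Over 6 arrays, 342 of the 6451 genes had an r over 0.9 with the enzyme pattern, 192 with Srebf2 and 4 with Mylip. Among the 7 genes themselves, Idi1 and Sqle had an r of 0.87 and Tmem97 and Mylip 0.73, while Srebf2 had -0.77 with Insig1 and -0.74 with Tmem97. These are descriptions over 6 arrays that share their scaling and their 2 groups.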

How the data were processed

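RNA of 6 samples was hybridised to Affymetrix Rat Gene 2.0 ST arrays. The authors processed the scans with Expression Console, and the deposited values are log2 signals per probe set, of which the summary and normalization method is not given in the sources used here. Of 36685 probe sets, 18511 had 1 gene symbol, 575 several and 17599 none in the platform annotation. Genes with more than 1 probe set (291) were represented by the brightest. Doses and times are those of the study's methods. The arrays' number limits the precision, and the labels do not say that replicates are separate rats, so the spread behind each p-value could be technical rather than between animals.

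Groups were compared with limma 3.58.1 in R 4.3.3 (lmFit and eBayes, no covariate), with Benjamini-Hochberg adjustment over 18166 genes, on all 6 arrays. The study's methods name a one-way ANOVA, which was run as an alternative. Other settings rescaled the arrays (by quantiles or by their medians), left out dim genes or set them to the background level, let the variance follow the intensity, weighted the arrays, used all probe sets or their mean, added the replicate number as a block, or left out arrays. The fit was tested on simulated data. Tables were made with pandas 2.3.3 and numpy 2.4.6 and figures with matplotlib 3.10.9.

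The genes, the lists and the cell type markers were chosen with earlier results of these data known. Named were the 8 genes, in each list the genes at the criterion or otherwise up to 2 with the lowest p, and the genes with the most similar pattern among those above background with an SD of at least 0.3 over the arrays. The enzyme pattern was to include Hmgcs1, which was not analysed here. Motifs were searched on both strands of RefSeq promoters.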

Additional observations from a re-analysis of the deposited data

How the results depend on the processing

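Over 18 alternative settings the log2 difference was -0.87 to -0.53 for Srebf2, 0.53 to 0.92 for Tmem97 and 0.40 to 0.85 for Mylip. The groups did not overlap for these genes, so leaving out or weighting arrays could not turn the sign. Several other settings left the difference as it was and changed only its standard error. Only rescaling the arrays could have turned the direction, and it did not. Srebf2 met the criterion in 11 settings, Tmem97 in 13 and Mylip in 4. The setting without diabetic arrays 1 and 2 leaves 1 diabetic array, assumed to vary like the Hlirag arrays, and no call is read from it. With the ANOVA 147 genes were higher and 89 lower, against 294 and 393 with limma. Of the 7 genes 2 were higher and 0 lower after quantile normalization and with array weights, which put their median at -0.079 and turned Insig1 to -0.079, although the weights did not converge. Median centring moved the median of all genes by -0.14 and left 0 of the 7 genes and 1 other cholesterol gene higher, and 128 genes higher against 383 lower. The filter on dim genes gave 142 higher and 306 lower, with a median over the genes kept of -0.19. The background floor gave 79 higher and 102 lower. Replicate numbers are shared between groups, and the labels do not say whether they pair the samples. Deviations of same-numbered arrays correlated at 0.32, 0.04 and 0.15, and those of arrays with unlike numbers at -0.32 to 0.16. These values do not settle whether the samples were paired. With the replicate as a block, 482 genes were higher and 635 lower, 2 other cholesterol genes were lower, and the calls of the 7 genes did not change. When arrays were left out, 0 to 3 of the 7 genes were higher and 0 to 1 lower, with a median of -0.10 to 0.51. Other cholesterol genes then numbered 1 to 3 higher and 0 to 7 lower, the 7 without Hlirag array 1, and all genes 107 to 1047 higher and 119 to 971 lower. The difference ranged from -1.29 to 0.27 for Idi1, -0.10 to 1.39 for Fdft1, -0.69 to 0.054 for Snx17 and -1.06 to 0.17 for Lss. Signs turned for Snx17 without Hlirag array 3 (0.054), Fdft1 without diabetic array 3 (-0.10), and Lss without diabetic array 2 (0.03) or diabetic arrays 1 and 2 (0.03). Without both Hlirag array 3 and diabetic array 2, a setting chosen after seeing the data, Idi1 was at 0.27 and Lss at 0.17, the median of the 18 enzymes was 0.08, 3 of the 7 genes were higher and 0 lower, and 193 genes were higher. Low signal limits Idi1, which was below background on 2 arrays.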
